A study of Sus scrofa with 43 samples.

Results

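The cytosolic ribosomal protein genes of the porcine jejunum were followed from birth to 4 weeks after weaning in piglets of control and amoxicillin-administered sows. Array spots were taken as members when their transcript accession carried, in RefSeq's table of porcine genes (assembly Sscrofa11.1), a symbol of RPL or RPS with digits and at most 1 suffix of A, X, Y or L, or RPLP0, RPLP1, RPLP2 or RPSA. The kinases named RPS6K were left out. This gave 36 genes, 20 of the large and 16 of the small subunit, out of 35884 transcript accessions on the array, of which 3037 carried a gene symbol. The table held 82 symbols of this form. Genes on accessions without a symbol were not reached, so further ribosomal protein genes may be on the array. The 36 genes were measured by 186 of 43803 gene probes, between 1 and 18 probes per gene.

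The cytosolic ribosome is the complex of ribosomal RNA and proteins that translates messenger RNA, and it is built from a small subunit, which reads the message, and a large subunit, which joins the amino acids. Its protein genes are among the most highly transcribed genes of any growing tissue, and their messenger RNAs carry a common sequence element at the 5′ end through which mTOR signalling controls their translation. The epithelium of the small intestine renews itself continuously from the crypts and makes large amounts of digestive enzymes, transporters and apolipoproteins.

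Sows of the Hypor line received standard feed, or the same feed with a daily 15 mg of amoxicillin (Paracillin SP) per kg of body weight from 1 week before the expected farrowing until farrowing. The piglets themselves were not dosed. Jejunal scrapings of 1 male piglet each were hybridised to 43 one-color arrays, 23 in the control and 20 in the amoxicillin arm. The control arm held 6 piglets on day 1, 6 on day 7, 3 at weaning, 5 at W4 (4 days after weaning) and 3 at W28 (4 weeks after weaning), and the amoxicillin arm held 4 at each age. The labels do not say whether piglets 19 and 19B of the control arm on day 1 are 1 animal, and they were counted as 2. A scraping is a mixture of epithelial, immune and stromal cells, so fewer cells of a type and less RNA per cell cannot be told apart. No slide held arrays of both arms, and the effects of slide and treatment cannot be told apart.

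On each array between 15937 and 29827 gene spots lay well above background, the lowest number being that of control piglet 34 at W28. The mean was 27392 in the control arm and 21523 in the amoxicillin arm, whose arrays had 16150 to 26290. At weaning the arms did not overlap in this number, with 25560 to 27339 on the control and 20222 to 22838 on the amoxicillin arrays, nor in the number of spots flagged as outliers, which was 64.7 ± 8.50 (SD, n = 3) and 134 ± 18.6 (n = 4). Enterocyte markers were measured for 12 of 21 genes listed, and FABP1, APOA1 and APOA4 were saturated on 88.4%, 97.7% and 96.5% of their spots. Markers of red blood cells were not on the array under the symbols listed.

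A first property of the ribosomal protein probes was their brightness. All 186 probes were well above background on every array, and all 36 genes passed the filter on dim features. Of the 7998 ribosomal protein spots, 54.2% were marked by the scanner software as saturated, against 1.06% of the other gene spots. A saturated spot sits at the ceiling of the scanner (an intensity of 65528) and gives only a lower bound of its signal. Of the 186 probes, 150 were saturated on at least 1 array, 109 on 22 or more arrays and 18 on all 43. The remaining 36 probes, which belonged to 17 of the genes, were never saturated.

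The genes differed in how far they could be read. RPLP2, an acidic protein of the ribosomal stalk, and RPL35, a large subunit protein, each had 1 probe that was saturated on all arrays, so no change over age or treatment could be measured for either. RPS28 was saturated on 99.2% of its spots, RPS20 on 98%, RPS21 on 93% and RPS3 on 92.2%. Further genes with mostly saturated spots were RPS13 (88.4%), RPLP0 (82.8%), RPS3A (79.9%), RPL32 (74.8%) and RPS12 (74.4%). Below these, 18 genes ranged from 70.5% for RPL29 to 19.8% for RPS4X. At the other end, RPL3, RPL7L1 and RPL26L1 were never saturated, and RPS16, RPL13A and RPS10 were saturated on 1.16%, 5.81% and 6.59% of their spots.

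The number of saturated ribosomal protein probes varied from 35 to 145 of 186 between arrays. In the control arm it was 112 ± 12.6 (SD, n = 6) on day 1, 100.3 ± 29.2 (n = 6) on day 7, 97.7 ± 51.4 (n = 3) at weaning, and 124 ± 12.6 (n = 5) at W4. The 3 control arrays at W28 had 59, 128 and 134. In the amoxicillin arm it was 94.8 ± 38.1 on day 1, 90.0 ± 24.9 on day 7, 66.3 ± 26.1 at weaning, 91.0 ± 34.3 at W4 and 114 ± 20.3 at W28 (n = 4 each). The lowest group mean was that of the amoxicillin piglets at weaning, with arrays at 66, 99, 35 and 65 probes. The 3 control arrays at weaning had 145, 105 and 43, so the groups overlapped.

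**Figure D1:**
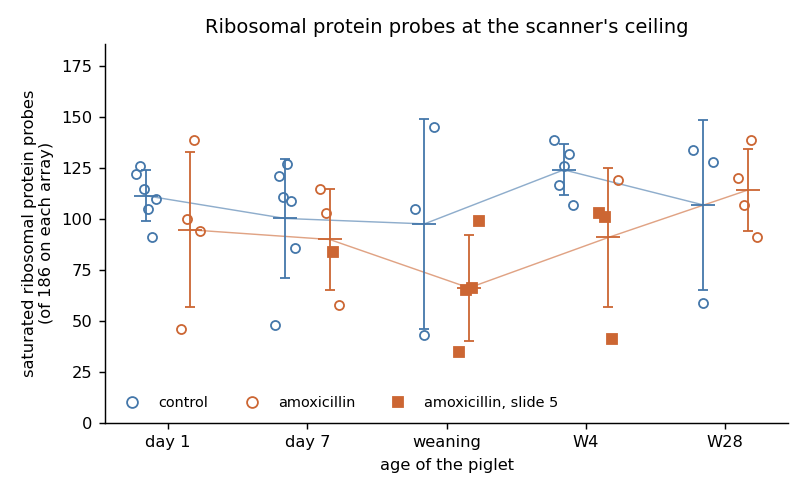
Number of saturated ribosomal protein probes (of 186, y axis) on each of the 43 arrays by age and arm. Points are arrays, bars are group means with SD, and filled squares are the 8 amoxicillin arrays of slide 5. Counts ranged from 35 to 145, and the arms overlapped at every age.

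The course over age was first read from all probes after quantile normalization, as in the study's own processing. A gene was called at an adjusted p under 0.05, from limma's moderated tests with Benjamini-Hochberg adjustment over the 12771 features tested. In the control arm 0 of 36 ribosomal protein genes changed over the 5 ages, against 30.5% of all features tested (1 gene at an unadjusted p under 0.05). In the amoxicillin arm 8 of 36 changed, against 47%. The 8 were RPL3, RPL14, RPL22 and RPL23 of the large subunit and RPS4X, RPS12, RPS16 and RPS18 of the small subunit. The course differed between the arms for 0 of 36 genes, against 6.18% of all features (3 genes at an unadjusted p under 0.05). At an unadjusted p under 0.05 there were 5185 of 12771 features over the control course and 2490 for the difference.

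Between neighbouring ages, with both arms averaged, few genes moved. From day 1 to day 7 the count was 0 of 36 (3.13% of all features were called), with 3 genes at an unadjusted p under 0.05. From day 7 to weaning it was 0 (11.5% of all features), with 2 genes at an unadjusted p under 0.05. From W4 to W28 it was 0 (5.43%), with 5 genes at an unadjusted p under 0.05. Over all 12771 features, 1738, 3339 and 2957 had an unadjusted p under 0.05 at these steps. From weaning to W4, 2 genes rose and 0 fell, against 13.7% of all features called in either direction. These were RPL7L1, a nucleolar relative of RPL7, which rose by 0.49 ± 0.15 (log2, SE, adjusted p = 0.0294), and RPL22, which rose by 0.45 ± 0.14 (adjusted p = 0.0269). Neither was called at the 75th percentile, with no filter on dim features or with slide as a fixed block. Within the amoxicillin arm alone RPL22 and RPS12 fell from day 7 to weaning (-0.59 and -0.45) and rose to W4 (0.85 and 0.52), and RPL14 and RPS16 rose from W4 to W28 (0.69 and 0.78). Over all 12771 features, 690 rose and 747 fell in the amoxicillin arm from day 7 to weaning. To W4 389 rose and 424 fell, and to W28 545 rose and 1074 fell. Within the control arm 0 genes were called at any step (0 or 1 at an unadjusted p under 0.05). Over all features, 100 rose and 82 fell in the control arm from day 1 to day 7, and 4 and 12 to weaning. To W4 190 rose and 133 fell, and to W28 0 features were called in either direction. At an unadjusted p under 0.05 the control counts were 1377, 1246, 2553 and 789 of 12771.

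The median change over the 36 genes was close to 0 at every step. In the control arm it was -0.07 from day 1 to day 7, -0.04 to weaning, 0.08 to W4 and 0.01 to W28 (log2). In the amoxicillin arm it was -0.05, -0.04, 0.08 and 0.09. Over all 12771 features the medians were 0.03, -0.01, -0.06 and -0.03 in the control arm and 0.05, 0.02, -0.01 and -0.17 in the amoxicillin arm. Most ribosomal protein spots were saturated (54.2%), and a saturated spot cannot show a rise.

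The same spots were then scaled to a common 75th percentile without quantile normalization, and 11597 features were tested. The control course was called for 0 genes (34.2% of all features; 1 at an unadjusted p under 0.05) and the amoxicillin course for 2, RPL26L1 and RPS16 (43.2%). The course differed between the arms for 0 genes (5.77%), with 0 at an unadjusted p under 0.05. The steps gave 0 genes from day 1 to day 7 (3.41%; 3 at an unadjusted p under 0.05), 0 from day 7 to weaning (13.1%; 2 at an unadjusted p under 0.05) and 0 from W4 to W28 (2.55%; 2 at an unadjusted p under 0.05). Over all 11597 features, 1638, 3186 and 2364 had an unadjusted p under 0.05 at these steps. For the control course it was 5020 and for the difference between the arms 2127. From weaning to W4 RPS20, of the small subunit, fell by 0.63 ± 0.22 (log2, SE, adjusted p = 0.0488), against 15.1% of all features called in either direction, whereas RPL7L1 and RPL22 were not called. RPS20 was the gene with 98% of its spots saturated, and its change under quantile normalization was -0.17 ± 0.10.

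The sign of the median turned with the scaling in 5 of the 8 steps by arm. From weaning to W4 it was 0.08 in the control arm under quantile normalization and -0.31 at the 75th percentile, and in the amoxicillin arm 0.08 and -0.18. From day 7 to weaning it was -0.04 and 0.10 in the control arm and -0.04 and 0.29 in the amoxicillin arm. From W4 to W28 it was 0.09 and -0.29 in the amoxicillin arm, and 0.01 and 0.21, with the same sign, in the control arm. From day 1 to day 7 it also kept its sign, at -0.07 and -0.25 in the control arm and -0.05 and -0.05 in the amoxicillin arm. Of the 36 genes, 23 had opposite signs under these scalings from weaning to W4 in the control arm, 17 in the amoxicillin arm and 19 from W4 to W28 in the amoxicillin arm. The median over all features moved by under 0.1 between the scalings at each of these steps.

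The values of the 18 probes saturated on every array also depended on the scaling. Their median per array lay between 15.94 and 16.00 (log2) under quantile normalization and between 15.04 and 16.98 at the 75th percentile, where each array's ceiling is shifted with the rest of that array. By group it went from 16.09 ± 0.47 (n = 3) at weaning to 15.51 ± 0.24 (n = 5) at W4 in the control arm, and from 16.60 ± 0.26 to 16.14 ± 0.81 (n = 4 each) in the amoxicillin arm. These probes cannot report a change in RNA, and at the 75th percentile their values are set by the shift of each array. The part of this shift in the median of the 36 genes was not tested.

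**Figure D2:**
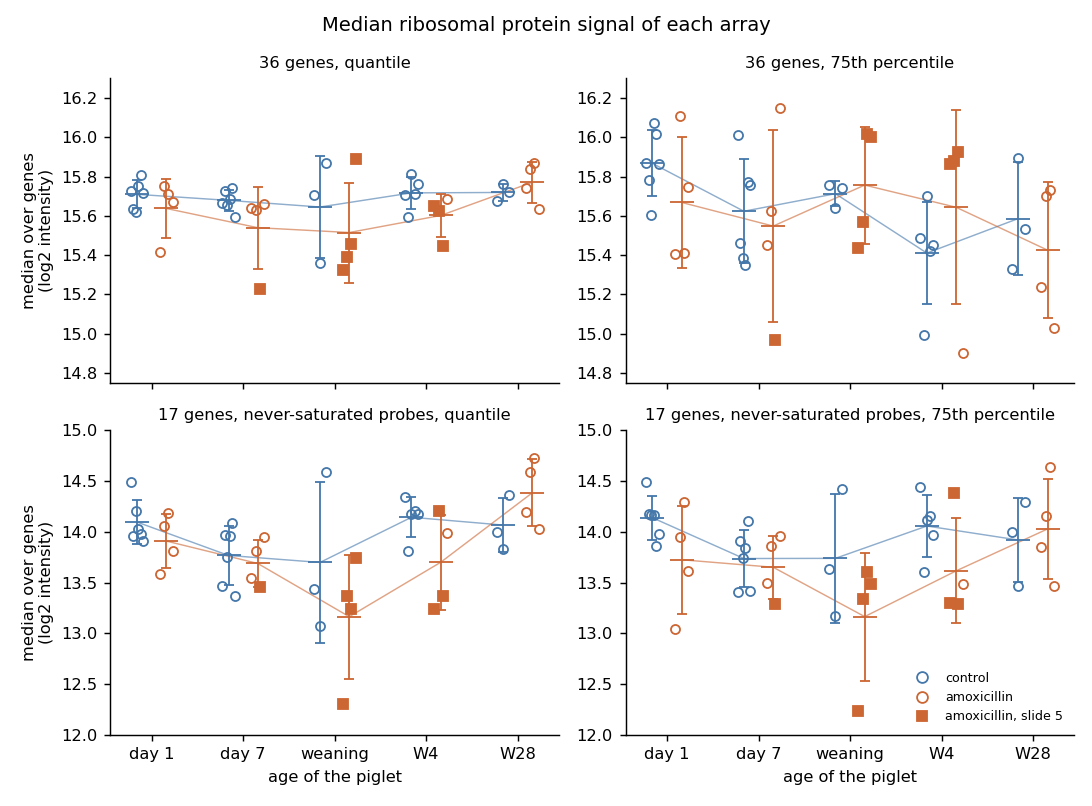
Median log2 intensity over the ribosomal protein genes on each array (y axis) by age and arm, for all 36 genes (top) and for the 17 genes with never-saturated probes (bottom), under quantile (left) and 75th percentile scaling (right). Points are arrays, bars are group means with SD and filled squares are slide 5; among the 36 genes the change from weaning to W4 in the control arm was 0.08 under quantile and -0.31 under 75th percentile scaling as the median of the single genes' changes.

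Because of the ceiling, the tests were repeated with only the probes that were never saturated, for every feature of the array (12335 features, 17 of the genes). This choice was made after the saturation had been seen. The control course was called for 1 of 17 genes, RPSA (30.4% of all features), and the amoxicillin course for 7 (47.1%). The 7 were RPL3, RPL14, RPL23, RPS4X, RPS12, RPS15 and RPS16. The course differed between the arms for 3 genes, RPL14, RPL23 and RPS12, against 6.31% of all features. Among the steps averaged over both arms, 0 genes were called from day 1 to day 7 (2.98%; 3 at an unadjusted p under 0.05) and 0 from W4 to W28 (5.63%; 7 at an unadjusted p under 0.05). Over all 12335 features, 1653 and 2888 had an unadjusted p under 0.05 at these steps. From day 7 to weaning 1 gene fell, RPS12 (11.3%), and from weaning to W4 RPS12 and RPL7L1 rose (13.5%). At the 75th percentile the control course again called RPSA (adjusted p = 0.019). The amoxicillin course called 5 genes there, with RPL3 (adjusted p = 0.157), RPS4X (0.12) and RPS15 (0.12) lost and RPL26L1 (0.0438) gained. The difference between the arms was called for RPS12 and RPL23 and no longer for RPL14 (adjusted p = 0.0714), and the rise of RPL7L1 was not called (0.179). With slide as a random block 4 genes were called over the amoxicillin course and 0 for the difference between the arms, and the fall of RPS12 to weaning was not called.

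The median change of these 17 genes kept its sign under both scalings from weaning to W4. It was 0.27 in the control and 0.41 in the amoxicillin arm under quantile normalization, and 0.14 and 0.38 at the 75th percentile. All 17 genes were above 0 in the control arm and 12 of 17 in the amoxicillin arm under quantile normalization, and 11 and 12 of 17 at the 75th percentile. Of all features, 5598 and 5982 of 12335 were above 0 under quantile normalization. At the 75th percentile it was 5247 and 5160 of 11159. At this step 0 of the 17 were called in the control and 1 in the amoxicillin arm under either scaling. Over all features, 186 rose and 122 fell in the control and 367 and 418 in the amoxicillin arm under quantile normalization. At the 75th percentile these counts were 399 and 235 in the control and 261 and 387 in the amoxicillin arm. On leaving out 1 array at a time, the control median ran from -0.12 to 0.70 (quantile normalization). From W4 to W28 the median was 0.03 in the control and 0.48 in the amoxicillin arm under quantile normalization, and -0.03 and 0.21 at the 75th percentile. From day 1 to day 7 it was -0.37 in the control and -0.08 in the amoxicillin arm under quantile normalization, and -0.43 and 0.04 at the 75th percentile. From day 7 to weaning the median was 0.04 in the control and -0.15 in the amoxicillin arm under quantile normalization. At the 75th percentile it was 0.13 and -0.10.

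**Figure D3:**
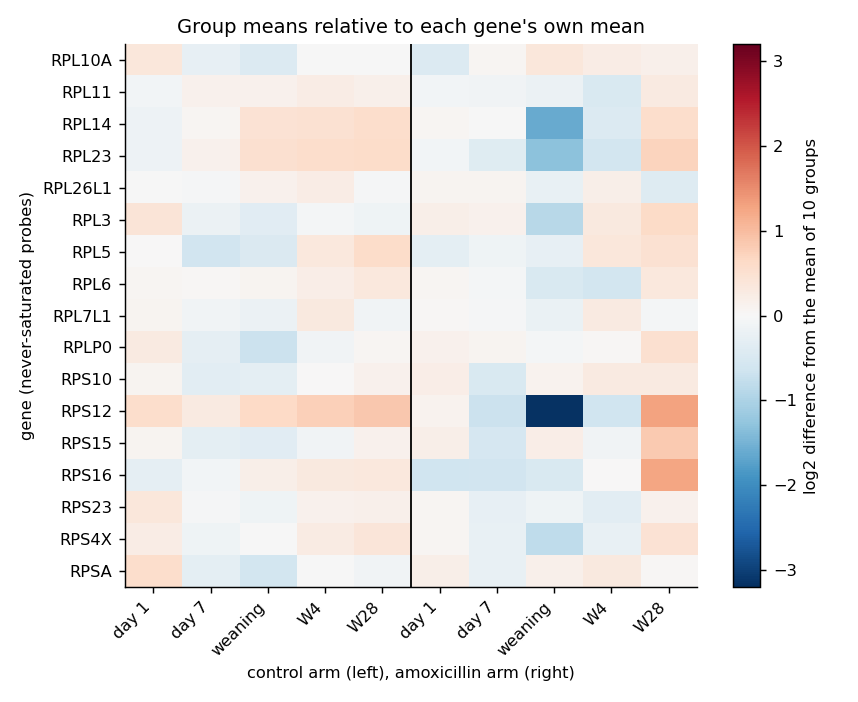
Mean log2 intensity of each of the 17 genes with never-saturated probes in the 10 groups, as the difference from the gene's own mean over the groups (colour; red is higher, blue lower). Columns are ages, with the control arm left and the amoxicillin arm right of the line; the darkest cell is RPS12 in the amoxicillin piglets at weaning, at 10.18 against 13.98 in the control piglets.

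The treatment was compared at each age by the rule of the study's methods, an adjusted p below 0.05 together with a change of more than 1.5 on the log2 scale. The paper's annotation clustering lists a ribosome term among the genes lower in the amoxicillin piglets at W4. The genes of that term are not named there and were not compared here. With all probes 0 of 36 genes were called on day 1 (0.211% of all features), day 7 (0%), at weaning (3.41%), at W4 (1.54%) and at W28 (2.13%). At an unadjusted p under 0.05, with no fold threshold, there were 0, 2, 5, 2 and 1 genes. Over all 12771 features there were 1264, 887, 2839, 1740 and 2225. By the adjusted p alone, 3 genes were lower in the amoxicillin piglets at weaning (7.95% of all features in either direction) and 0 were called on day 1 (0.258%), day 7 (0%), at W4 (3.37%) and at W28 (4.11%). The 3 were RPL22 (-0.86 ± 0.21, adjusted p = 0.00809), RPS12 (-0.69 ± 0.16, adjusted p = 0.00664) and RPS18 (-0.63 ± 0.20, adjusted p = 0.039). At the 75th percentile 0 of the 36 were called at weaning (1 at an unadjusted p under 0.05). Of all 11597 features, 560 were called higher and 620 lower there, and 2683 had an unadjusted p under 0.05. The median difference over the 36 genes, from day 1 to W28, was -0.06, -0.03, -0.02, -0.04 and 0.05 under quantile normalization and -0.17, 0.07, 0.28, 0.30 and -0.18 at the 75th percentile, so its sign turned with the scaling at every age but day 1.

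With the never-saturated probes 3 of 17 genes were called by the same rule at weaning, all lower in the amoxicillin piglets (3.5% of all features). On day 1 (0.219%), day 7 (0%), at W4 (1.59%) and at W28 (2.21%) the count was 0, with 1, 1, 5 and 1 genes at an unadjusted p under 0.05. Over all 12335 features 1234, 832, 1667 and 2182 had an unadjusted p under 0.05 at these ages. The 3 genes were RPS12, RPL23 and RPL14, each read by 1 probe. The amoxicillin arrays at weaning also had fewer spots above background and more flagged spots than the control arrays, without overlap, and the part of this in the differences was not tested.

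RPS12, a small subunit protein, showed the largest difference. At weaning its never-saturated probe gave 9.99, 10.49, 9.84 and 10.40 (log2 intensity) in the 4 amoxicillin piglets and 14.55, 13.43 and 13.97 in the 3 control piglets. The groups did not overlap, and the difference was -3.80 ± 0.52 (SE, adjusted p = 5.72e-05, quantile normalization) and -3.93 at the 75th percentile. In the control arm the probe stayed between group means of 13.64 ± 0.35 on day 7 (n = 6) and 14.22 ± 0.43 at W28 (n = 3). In the amoxicillin arm it went from 13.47 ± 0.85 on day 1 to 12.65 ± 1.68 on day 7, 10.18 ± 0.31 at weaning, 12.73 ± 1.02 at W4 and 14.64 ± 0.51 at W28 (n = 4 each). Within that arm it fell by 2.47 ± 0.49 from day 7 to weaning (adjusted p = 0.00101), rose by 2.54 ± 0.49 to W4 (adjusted p = 0.00203) and by 1.92 ± 0.49 to W28 (adjusted p = 0.00861). The course differed between the arms (adjusted p = 0.0027). The amoxicillin arrays lay on slide 4 or 5 on day 7, slide 5 at weaning, 5 or 6 at W4 and 6 at W28. Age and slide cannot be told apart in this course, and the day 7 array on slide 5 gave 10.38, within the weaning values. The other 5 RPS12 probes were saturated on 28 to 43 of the arrays and differed by -0.40 to 0.14 at weaning, so the average over all 6 probes differed by only -0.69.

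RPL23, of the large subunit, gave 12.44, 12.88, 12.26 and 11.82 in the amoxicillin piglets at weaning and 14.59, 13.86 and 14.06 in the control piglets. The difference was -1.82 ± 0.31 (adjusted p = 0.000362) and -1.90 at the 75th percentile. At W4 the amoxicillin piglets gave 12.57, 12.78, 13.08 and 13.84 against 13.93 to 14.40 in the 5 control piglets, a difference of -1.14 ± 0.27 (adjusted p = 0.0176) that stayed under the fold threshold. At W28 the means were 14.35 ± 0.29 (n = 4) and 14.24 ± 0.31 (n = 3). Its other 3 probes, saturated on 29 to 37 arrays, differed by -0.10 to 0.03 at weaning.

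RPL14, of the large subunit, gave 14.51, 13.49, 12.30 and 11.63 in the amoxicillin piglets at weaning and 15.40, 15.10 and 14.69 in the control piglets. The difference was -2.08 ± 0.44 (adjusted p = 0.0028) and -2.18 at the 75th percentile, and the 4 amoxicillin piglets were spread over nearly 3 log2 units (SD 1.28). A second RPL14 probe, saturated on 14 arrays, was also lower in the amoxicillin piglets without overlap (-1.25). The remaining 3, saturated on 28 to 38 arrays, differed by -0.13 to 0.14. With slide as a random block RPL14 was no longer called at weaning (-1.82, adjusted p = 0.059), whereas RPS12 and RPL23 were. All amoxicillin arrays at weaning lay on slide 5 and all control arrays on slide 2, so this fit cannot separate slide from treatment.

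**Figure D4:**
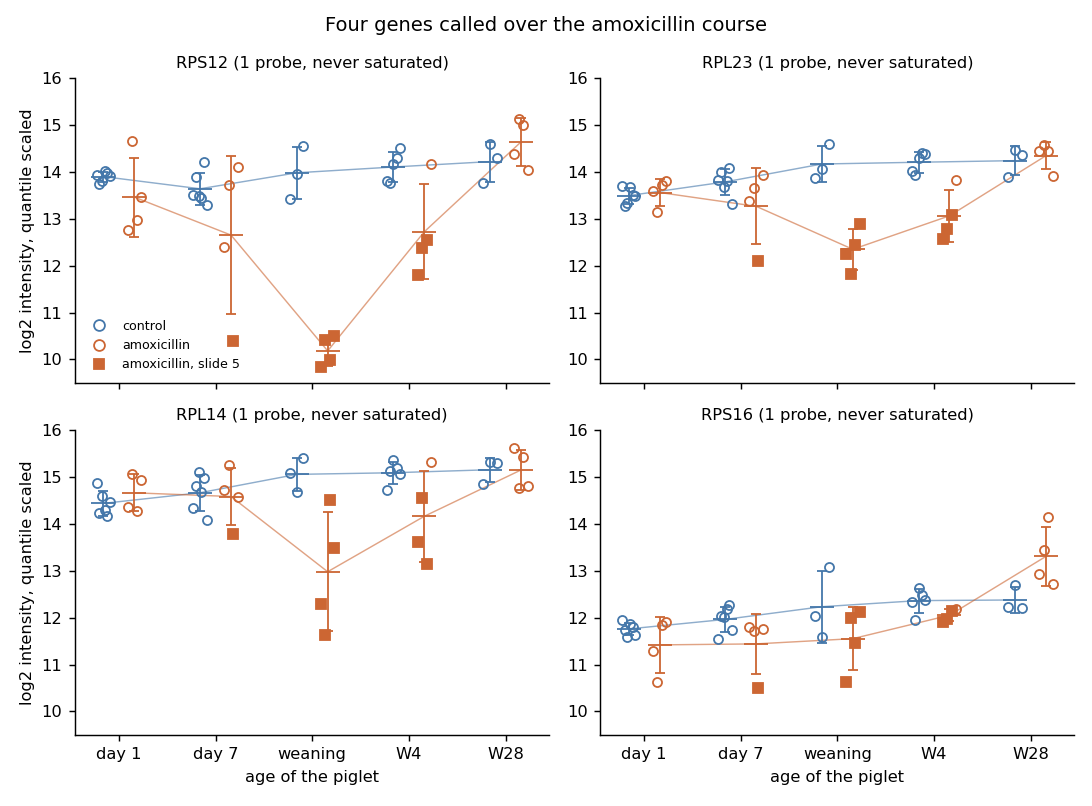
Log2 intensity (quantile scaled) of the never-saturated probe of RPS12, RPL23, RPL14 and RPS16 on each array, by age and arm. Bars are group means with SD and filled squares are the 8 amoxicillin arrays of slide 5; for RPL23 these 8 lay at or below 13.08, under all 35 other arrays, and for RPS16 the amoxicillin arrays at W28 were the highest.

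The values of the RPS12, RPL23 and RPL14 probes were also set out by the slide of the arrays. Slide 5 held 8 amoxicillin arrays, those of piglet 24 on day 7, all 4 at weaning and piglets 10, 32 and 33 at W4. On day 7 the RPS12 probe gave 10.38 on the slide 5 array and 14.11, 12.40 and 13.73 on the 3 arrays of slide 4. At W4 it gave 11.80, 12.38 and 12.55 on slide 5 and 14.17 on the 1 array of slide 6 (piglet 34). RPL23 gave 12.09 on slide 5 against 13.39 to 13.94 on slide 4 on day 7, and RPL14 13.80 against 14.57 to 15.25. Over the whole series, the 8 slide 5 arrays gave 11.82 to 13.08 for RPL23 and the other 35 arrays 13.14 to 14.59. For RPS12 the ranges were 9.84 to 12.55 and 12.40 to 15.13, and for RPL14 11.63 to 14.56 and 14.09 to 15.62. The RPS12, RPL23 and RPL14 probes were taken for their low values at weaning, and all 4 amoxicillin weaning arrays are among the 8. The part of slide 5 in the weaning difference was not tested, and at weaning the 2 cannot be told apart.

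Across the 36 never-saturated ribosomal protein probes, 2 lay lower on all slide 5 arrays than on any other array, 1 of RPL23 and 1 of RPS4X, against 0.159% of the 17001 never-saturated gene probes above the filter on all arrays of at least 1 group. At weaning 5 of the 36 probes were lower in the amoxicillin piglets without overlap, 0 were higher and 31 overlapped. Among the 15641 never-saturated gene probes whose mean over all arrays exceeded the filter, a smaller set, 5.88% were lower and 5.55% higher without overlap. The 5 were the probes of RPS12, RPL23 and RPL14 and 2 of RPS4X.

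RPS4X, the X-linked form of a small subunit protein, is the clearest case of probes of 1 gene that disagreed. Of its 7 never-saturated probes, 2 differed by -2.67 and -2.47 at weaning and the other 5 by -0.28 to 0.08. On slide 5 the first of these gave 9.51 to 12.43 and elsewhere 12.29 to 14.64, and the second 7.23 to 8.78 against 8.82 to 13.16. The average over the 7 probes was 12.70 ± 0.59 (n = 4) in the amoxicillin and 13.50 ± 0.81 (n = 3) in the control piglets at weaning (-0.80 ± 0.32, adjusted p = 0.117). RPL26L1 likewise had 1 of 4 probes at -1.17, while the other 3 differed by -0.28 to 0.04. Among the 3 never-saturated probes of RPL6, 2 differed by -0.91 and -0.89 and the third by 0.05, all with overlapping groups.

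The range of the weaning difference was narrower for probes saturated on more arrays. Spots at the ceiling can show little difference, so a narrow range is built in for mostly saturated probes. The 36 never-saturated probes spanned -3.80 to 0.94, the 41 saturated on 21 arrays or fewer -1.94 to 1.16, the 91 saturated on more, but not all, arrays -1.07 to 0.47, and the 18 saturated on all arrays -0.01 to 0.15. Differences beyond 1 in size were thus seen for 6, 6, 1 and 0 probes. RPL22, which binds RNA and lies at the surface of the large subunit, had no probe that was never saturated. Its probe saturated on 1 array differed by -1.94 at weaning without overlap, and its other 2 probes, saturated on 25 and 32 arrays, by -0.38 and -0.25. As an average of the 3 probes RPL22 gave 14.30, 15.01, 15.04 and 15.00 in the amoxicillin and 15.93, 15.80 and 15.36 in the control piglets. RPS18, of the small subunit, gave 15.16, 15.74, 14.44 and 15.42 against 15.85, 15.96 and 15.66, so that 1 amoxicillin piglet overlapped the control group.

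**Figure D5:**
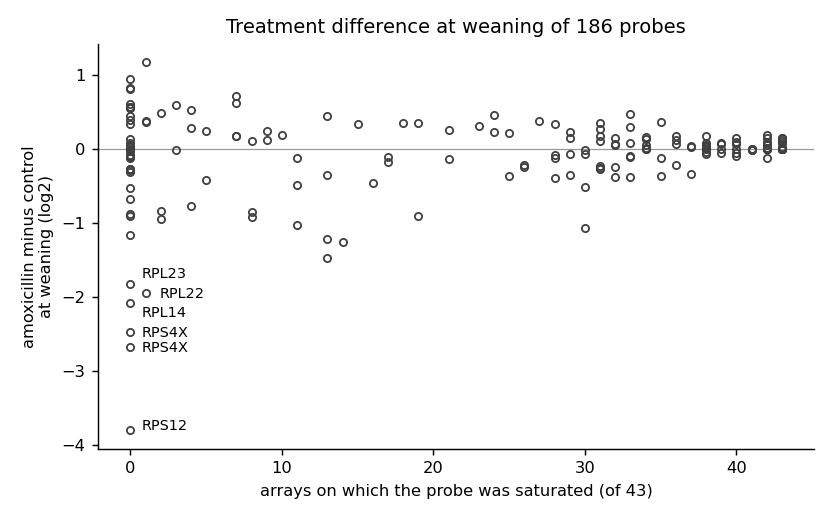
Difference between amoxicillin and control piglets at weaning (log2, y axis) of each of the 186 ribosomal protein probes, against the number of arrays (of 43) on which the probe was saturated (x axis). Points are probes; differences ran from -3.80 to 0.94 where no array was saturated and from -0.01 to 0.15 where all were.

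RPS16, a small subunit protein, was called over the amoxicillin course under both scalings and with either set of probes. Its never-saturated probe gave 11.85, 11.29, 10.63 and 11.92 on day 1 and 12.94, 13.44, 14.15 and 12.72 at W28 in the amoxicillin piglets, which did not overlap. The change from day 1 to W28 was 1.89 ± 0.33 (adjusted p = 2.78e-05) in the amoxicillin arm, and 0.62 ± 0.33 (adjusted p = 0.169) in the control arm, from 11.76 ± 0.14 (n = 6) to 12.38 ± 0.29 (n = 3). With all probes these values were 1.35 ± 0.26 and 0.42 ± 0.26. The course of RPS16 was not called different between the arms (adjusted p = 0.138). All 4 amoxicillin arrays at W28 lay on slide 6 and all 4 on day 1 on slide 4, so age and slide cannot be told apart in this change.

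RPSA, the laminin receptor that is also a small subunit protein, was the gene called over the control course (adjusted p = 0.0137, 3 never-saturated probes). With all 6 probes its control course was not called (adjusted p = 0.0716). In the control piglets it went from a median of 14.80 (14.44 to 14.95, n = 6) on day 1 to 13.88 ± 0.28 (n = 6) on day 7. The 2 groups did not overlap, but this step within the control arm was called for 0 of 17 genes. Over all 12335 features 75 rose and 74 fell at the step. All 6 day 1 arrays lay on slide 1, with 2 day 7 arrays on slide 1 and 4 on slide 2. RPSA then gave 14.61, 13.38 and 12.77 at weaning, 14.17 ± 0.20 (n = 5) at W4 and 14.06 ± 0.35 (n = 3) at W28. In the amoxicillin piglets the means lay between 13.95 ± 0.19 on day 7 and 14.51 ± 0.38 at W4. RPL10A, of the large subunit, had means of 15.25 ± 0.09 on day 1 and 14.64 ± 0.24 on day 7 in the control piglets (n = 6 each), and of 14.46 ± 0.50 and 14.95 ± 0.15 in the amoxicillin piglets (n = 4 each), and was not called in either arm.

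RPL3, at the catalytic centre of the large subunit, was read by 1 never-saturated probe, and its spot was flagged and left out for amoxicillin piglet 8 at weaning. The amoxicillin piglets gave 13.24, 12.44 and 14.69 at weaning and 15.13, 14.42, 14.55 and 14.53 at W4, and the course was called in that arm under quantile normalization (adjusted p = 0.0174) but not at the 75th percentile (adjusted p = 0.157). RPS15, of the small subunit, was called over the amoxicillin course with its never-saturated probe under quantile normalization (adjusted p = 0.0223) but not at the 75th percentile (adjusted p = 0.12), with 13.77 ± 0.88 on day 7, 14.52 ± 0.66 at weaning, 14.21 ± 0.53 at W4 and 15.15 ± 0.56 at W28 (n = 4 each). RPLP0, the protein on which the stalk is built and a common reference gene, had 1 never-saturated probe of 13. It gave group means between 13.42 ± 1.15 (control, weaning, n = 3) and 14.62 ± 0.59 (amoxicillin, W28, n = 4) and was called in none of the courses.

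The paralogs RPL7L1 and RPL26L1 were never saturated. RPL7L1 gave 13.88, 13.09 and 13.36 in the control piglets at weaning and 13.85, 14.04, 13.41, 14.15 and 14.18 at W4. In the amoxicillin piglets it gave 13.60, 13.64, 13.00 and 13.39 at weaning and 14.05, 14.20, 14.10 and 13.26 at W4. The groups overlapped in both arms, the array of slide 6 (piglet 34) was the low one at W4, and at the 75th percentile the rise was 0.39 with an adjusted p of 0.175. RPL26L1 stayed between 11.83 ± 0.48 (amoxicillin, W28, n = 4) and 12.48 ± 0.14 (control, W4, n = 5). It fell from W4 to W28 by 0.88 ± 0.28 in the amoxicillin arm at the 75th percentile (adjusted p = 0.0496), and its change was -0.60 under quantile normalization.

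Among the other genes with the largest differences, none of which was called, RPL13A differed by 0.53 ± 0.37 (adjusted p = 0.429) between the arms at weaning and by -0.58 ± 0.25 (adjusted p = 0.114) from weaning to W4. RPL27, with 1 probe, differed by -0.42 ± 0.23 (adjusted p = 0.248) from day 7 to weaning. RPS10 differed by -0.45 (adjusted p = 0.256) from day 1 to day 7, and RPS26 was lower by 0.41 on day 7 in the amoxicillin piglets (-0.41, adjusted p = 0.645). At W28 RPL3 differed by 0.75 ± 0.39 (adjusted p = 0.327) and RPS16 by 0.64 ± 0.28 (adjusted p = 0.211), with the amoxicillin piglets higher, and RPL26L1 by -0.38 and RPL27 by -0.37. RPS13 and RPL10 changed by 0.05 and 0.04 from day 1 to day 7 and RPS23 by -0.11 from weaning to W4.

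Few other genes of the translation machinery were reached through an accession with a gene symbol, and more may be on the array. Over day 1 to W28, with both arms averaged, 19.1% of all features rose and 23.9% fell, while 1 of the 36 ribosomal protein genes rose (RPS16) and 0 fell. Of the 52 translation factors listed 10 were measured, of which 1 rose and 3 fell. TPT1, which carries the same 5′ element as the ribosomal protein messages, rose by 0.43 ± 0.10 (adjusted p = 0.000629) under quantile normalization and changed by 0.09 at the 75th percentile, with 75.4% of its spots saturated. EEF1E1, a scaffold of the aminoacyl-tRNA synthetase complex, had the next largest value and was not called (0.16 ± 0.33, adjusted p = 0.723), and the elongation factor EEF1A1, saturated on 75.1% of its spots, was at -0.03 ± 0.11. EIF4E2, a cap-binding protein, fell by 1.44 ± 0.18 (adjusted p = 3.64e-08), EIF4G1, a scaffold of the initiation complex, by 0.75 ± 0.31 (adjusted p = 0.0475), and EIF4A2, a helicase, by 0.39 ± 0.15 (adjusted p = 0.0355). With only never-saturated probes, 1 of the 10 translation factors rose and 3 fell under quantile normalization, and the highest value was 2.12. At the 75th percentile these probes gave 1 rising and 2 falling, with a highest value of 2.06. With all probes at the 75th percentile RPS16 was also above 0 (0.69 ± 0.20, adjusted p = 0.00561), and RPL26L1, RPL27 and RPSA fell by 0.49, 0.62 and 0.48. Over all 11597 features 2146 rose and 2631 fell there. With never-saturated probes 2 of 17 ribosomal protein genes rose and 0 fell under quantile normalization (2338 and 2983 of 12335 features). At the 75th percentile 2 of the 17 rose and 2 fell (2093 and 2564 of 11159 features).

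Of 101 ribosome biogenesis genes listed 9 were measured, and 0 passed the test (0 at an unadjusted p under 0.05). Over all 12771 features 6384 had an unadjusted p under 0.05 over day 1 to W28. PES1 and NIP7, factors of large subunit assembly, changed by 0.38 ± 0.25 and 0.37 ± 0.32, and NOP56 and NOP2, nucleolar proteins, by -0.21 ± 0.30 and -0.16 ± 0.32. Of the 7 mitochondrial ribosomal protein genes 0 passed (0 at an unadjusted p under 0.05), from -0.45 ± 0.32 for MRPS18B and -0.19 ± 0.18 for MRPL2 to 0.21 ± 0.20 for MRPS11 and 0.52 ± 0.47 for MRPL16. None of these 16 genes had a saturated spot. Of 20 genes of mTOR and S6 kinase control 3 were measured, and EIF4EBP2, an inhibitor of the cap-binding protein, fell by 1.02 ± 0.25 (adjusted p = 0.000993), with DDIT4 at 0.03 ± 0.28 and PDCD4 at 0.10 ± 0.33.

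Markers of other cell types moved over the same ages. All 7 T cell markers measured rose from day 1 to W28, by 2.25 (CD3D) to 4.15 (CD3E). The crypt proliferation markers gave 0 of 7 (0 at an unadjusted p under 0.05), from -0.35 for AURKA to 0.34 for AURKB, and 5 of 12 enterocyte markers rose under quantile normalization (3 of 12 at the 75th percentile). At weaning the summed T cell signal (log2 of the sum over 8 genes) lay between 11.37 and 12.60 in the control and 11.60 and 12.88 in the amoxicillin piglets. The summed enterocyte signal lay between 18.68 and 19.14 and between 17.60 and 19.20. The part of cell composition in the courses of the ribosomal protein genes was not tested.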

How the data were processed

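RNA of jejunal scrapings was hybridised to one-color Agilent porcine arrays. The authors scanned the arrays and deposited each array's scanner intensity values (Feature Extraction 10.7.3.1) and a table of log2 values, made with R 3.0.2 and limma. The deposited log2 table was matched to within 5e-09 by normexp background correction (offset 1) of the median signal and quantile normalization.

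Here limma 3.58.1 (R 4.3.3) was run on the intensity values processed in that way. Spots flagged as outliers were left out, and probes were averaged by transcript accession. A feature was kept when it exceeded 1.1 times the highest dark control spot on the log2 scale (7.68) on all arrays of at least 1 group. A model of 10 groups was fitted, with moderated tests and Benjamini-Hochberg adjustment over all features. The scripts were tested on simulated data. The members and lists were chosen with earlier results of these data known. Genes were named by a rule: RPLP0, RPLP2, RPSA, RPS4X and paralogs, the 3 highest and lowest at each age step, the 2 highest and lowest treatment differences at each age, genes mostly saturated, and genes whose probes disagree. The set of never-saturated probes was added after the data were seen. The alternatives were 75th percentile scaling, the processed signal, the authors' table, an offset of 50, flagged spots kept, no filter, other fold thresholds, each arm alone, slide and piglet number as blocks, and leaving out each array. Piglet numbers shared by both arms gave correlations of -0.27 to 0.44 over 10 pairs, so they were read as shared numbers only. Replicates were single piglets, and the number of arrays limits the precision. No sequences or coordinates were used. The values of 1 member gene are not reported here.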

Additional observations from a re-analysis of the deposited data

Results flagged for a closer look

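Of 167 groups of 4 to 6 arrays tested, 9 had 1 array far from the others by Dixon's criterion, and chance flags about 1 in 20. Among the medians over the 36 ribosomal protein genes, amoxicillin piglet 24 on day 7 (slide 5) was low at 15.23 (next 15.63, log2, quantile), and amoxicillin piglet 34 at W4 (slide 6) was low at 14.90 at the 75th percentile (next 15.87).

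Among single genes read from never-saturated probes, RPS16 was low in amoxicillin piglet 24 on day 7 (10.49, next 11.72). RPS15 was low in amoxicillin piglet 21 on day 7 (12.45, next 14.14) and in control piglet 29 at W4 (13.82, next 14.27). RPLP0 was low in amoxicillin piglet 4 on day 7 (13.42, next 14.34). RPL7L1 was low in amoxicillin piglet 34 at W4 (13.26, next 14.05), RPL26L1 in amoxicillin piglet 39 at W28 (11.13, next 11.97) and RPL10A in control piglet 20 on day 1 (15.07, next 15.24).

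The course over age differed between the arms, by the interaction term with never-saturated probes, for RPS12 (adjusted p = 0.0027), RPL23 (adjusted p = 0.00657) and RPL14 (adjusted p = 0.0389). At the 75th percentile RPL14 was not called (adjusted p = 0.0714).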

How the results depend on the processing

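At a common 75th percentile, the median change of the 36 genes in the control arm was -0.25 from day 1 to day 7, -0.31 from weaning to W4 and 0.21 from W4 to W28. In the amoxicillin arm it was 0.29 from day 7 to weaning, -0.18 from weaning to W4 and -0.29 from W4 to W28. The treatment median was 0.28 at weaning, 0.30 at W4 and -0.18 at W28. With the processed signal the same medians were -0.27, -0.30 and 0.23, then 0.29, -0.16 and -0.29, then 0.29, 0.32 and -0.15. The ceiling shifts with each array under these scalings. The amoxicillin course called 2 genes at the 75th percentile, 1 with the processed signal, 3 with slide as a random block, 2 with slide as a fixed block and 1 with that arm fitted alone. The control course called 2 genes with its arm fitted alone. The step from weaning to W4 called 1 gene at the 75th percentile, and 0 with the processed signal, with no filter or with slide fixed. Without a fold threshold 3 genes were called at weaning between the arms. Of the values that answer a comparison, 277 stayed within the spread between replicates or within 1.5 times the count and 46 moved, leaving out single arrays aside. The causes were not tested.

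With never-saturated probes, slide as a fixed block left 0 genes over the control course, 1 over the amoxicillin course, and 0 for the steps from day 7 to weaning and from weaning to W4, and the day 7 to weaning change of RPS12 became 0.0094. Slide as a random block left 4 over the amoxicillin course, 0 for the difference between the courses and 0 from day 7 to weaning. At weaning it gave RPS12 -3.38 (adjusted p = 0.00335), RPL23 -1.59 (adjusted p = 0.0156) and RPL14 -1.82 (adjusted p = 0.059), so RPL14 was no longer called. No slide held both arms, so this fit cannot separate slide from treatment. From weaning to W4, 1 gene was called at the 75th percentile.

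Piglet number as a replicate block, where the numbers pair few arrays, left 0 genes over the amoxicillin course with either set of probes and 0 from weaning to W4, with a control median of -0.14 (all probes) and -0.36 (never saturated). With never-saturated probes it left 0 over the control course, 0 from day 7 to weaning, where RPS12 became 0.81, and 1 for the difference between the courses. RPS12, RPL23 and RPL14 remained called at weaning (-4.35, -1.98 and -1.64).

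Leaving out 1 array at a time, all probes called 0 to 1 genes over the control course, 5 to 12 over the amoxicillin course (5 without amoxicillin weaning piglet 25), 0 for the difference, 0 to 1 from day 1 to day 7, 0 to 1 to weaning, 1 to 5 to W4 (5 without control weaning piglet 7, 4 without amoxicillin weaning piglet 8), 0 to 2 to W28 (2 without amoxicillin W4 piglet 34) and 0 for treatment at each age. The medians ran from -0.09 to -0.06, -0.15 to 0.08, -0.05 to 0.20 and -0.01 to 0.03 over the control steps, from -0.09 to 0.01, -0.11 to 0.0039, -0.0041 to 0.19 and 0.06 to 0.15 over the amoxicillin steps, and from -0.07 to -0.04, -0.04 to 8.5e-05, -0.15 to 0.02, -0.09 to -0.0011 and -0.0072 to 0.10 for treatment from day 1 to W28.

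Never-saturated probes then called 1 to 3 genes over the control course (3 without control weaning piglet 7), 6 to 9 over the amoxicillin course, 2 to 3 for the difference, 0 to 1 from day 1 to day 7, 0 to 2 to weaning, 1 to 6 to W4 (6 without control weaning piglet 7), 0 to 3 to W28 (3 without amoxicillin W4 piglet 34), 3 for treatment at weaning, 0 to 1 at W4 and 0 at other ages. The fall of RPS12 from day 7 to weaning was lost on leaving out any 1 of 8 arrays (control day 7 piglets 20 and 23, control weaning piglets 24 and 25, amoxicillin day 7 piglets 4 and 21, amoxicillin weaning piglets 7 and 25), and 2 genes were called without amoxicillin weaning piglet 29. The medians ran from -0.40 to -0.33, -0.38 to 0.38, -0.12 to 0.70 and -0.04 to 0.09 over the control steps, from -0.18 to -0.01, -0.63 (without amoxicillin weaning piglet 8) to -0.0038, 0.01 to 0.65 and 0.32 to 0.62 over the amoxicillin steps, and from -0.24 to -0.02, -0.20 to 0.09, -0.58 to 0.02, -0.25 to 0.00034 and -0.0086 to 0.31 for treatment. At weaning RPS12 ranged from -4.08 to -3.52, RPL23 from -1.999 to -1.61 and RPL14 from -2.59 to -1.63. Saturation limits what the all-probe values can show.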
